A study of Mus musculus with 13 samples.

Results

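Genes whose products move iron across membranes, or change its oxidation state for that passage, were followed in newly made RNA from mouse kidney. They were the 10 rows of the deposited gene table with the symbols Tfrc, Slc11a2, Slc40a1, Slc39a14, Slc39a8, Steap3, Cybrd1, Heph, Cp and Hfe. They were listed by name among 35013 gene symbols, with earlier results of these data known. All 10 passed the filter on low counts that left 16468 genes for testing. RNA was tagged with 4-thiouracil in cells that carry uracil phosphoribosyltransferase (UPRT), captured on beads and sequenced. The study asked how loss of Spns1, a transporter of the lysosomal membrane, compares with iron loading. Of 13 kidney libraries from female mice, 4 were labelled Spns1 KO, 5 WT and 4 FeO (iron overload). The Spns1 KO mice were Megalin3'Cre-Ert with Spns1 flox/flox and Uprt flox/+. The study's methods give WT and FeO mice as Megalin3'Cre-Ert with Spns1 flox/+ and Uprt flox/+, whereas the sample labels call both Spns1 WT. All groups thus carried a tamoxifen-inducible Cre driven from the megalin locus, a locus active in proximal tubule cells, together with 1 Uprt allele that Cre switches on. The study's methods state that mouse pairs received tamoxifen in parallel. FeO mice received 12 mg of iron as iron sucrose on each of 3 days and were euthanized 1 week later. The labels give no age and do not say that each library came from a separate animal, so p-values measure the spread between these libraries, which may in part be technical.

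Iron reaches a cell bound to transferrin or as free ions. Transferrin receptor 1, encoded by Tfrc, carries holo-transferrin into endosomes, where Steap3 reduces the released iron and DMT1, the product of Slc11a2, moves it to the cytosol, while Hfe binds the receptor and takes part in sensing transferrin saturation. ZIP14 (Slc39a14) and ZIP8 (Slc39a8) import divalent metals, among them iron not bound to transferrin, and Cybrd1, duodenal cytochrome b, reduces ferric iron at the apical membrane of absorptive cells. Ferroportin, encoded by Slc40a1, releases ferrous iron, which the multicopper ferroxidases hephaestin (Heph) and ceruloplasmin (Cp) oxidize for loading onto transferrin. In the kidney, proximal tubule cells recover filtered transferrin and other iron carriers through megalin and cubilin.

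Several of these messages carry iron-responsive elements, short stem-loops to which iron regulatory proteins bind when cytosolic iron is low. Binding in the 3′ untranslated region of Tfrc protects the message from decay, whereas binding in the 5′ untranslated region of Slc40a1 holds back its translation. The stem-loops are shown because they are the sequence feature through which Tfrc, Slc11a2 and Slc40a1 messages are known to respond to iron. Counts of newly made RNA do not measure translation or decay, so the action of the stem-loops was not tested. Sense-strand sequence of the coding transcripts of GRCm38 (GENCODE M21) was searched. The pattern was C, any 5 bases, CAGTG, any 1 base and 5 bases able to pair with the first 5 (G with T allowed). Capitals mark the unpaired C and the CAGTG, which holds the loop. The search found 4 sites in the 3′ untranslated region of Tfrc and 1 in the 5′ untranslated region of Slc40a1. A looser search, chosen after the first and allowing 1 unpaired base in the second arm, added the site of Slc11a2.
Tfrc site 1, chr16:32631219-32631247, plus strand: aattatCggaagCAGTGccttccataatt
Tfrc site 2, chr16:32631598-32631626, plus strand: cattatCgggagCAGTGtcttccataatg
Tfrc site 3, chr16:32631663-32631691, plus strand: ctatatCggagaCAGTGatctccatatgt
Tfrc site 4, chr16:32631710-32631738, plus strand: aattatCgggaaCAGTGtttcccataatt
Slc40a1, 5′ untranslated, chr1:45925465-45925493, minus strand: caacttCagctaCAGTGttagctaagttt
Slc11a2, 3′ untranslated, chr15:100395152-100395181, minus strand: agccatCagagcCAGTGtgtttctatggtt

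The Tfrc sites lay in 1 of its 3 coding transcripts, the Slc40a1 site in 1 of 4 and the Slc11a2 site in 1 of 7. Across 22500 protein-coding genes, 0.64% held the stricter pattern in a 3′ untranslated region and 0.138% in a 5′ untranslated region, and 1.24% held the looser one in a 3′ untranslated region. The other 7 genes had no such letters in their annotated coding transcripts, and noncoding transcripts were not searched. Because a deposited count sums every transcript of a gene, forms with and without a stem-loop could not be told apart.

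Library totals spanned 31809135 to 71296474 counts for Spns1 KO, 23068023 to 37362311 for WT and 25986133 to 29981814 for FeO. Counts of the targeted gene did not separate the groups: Spns1 stood at 39.0, 44.5, 36.6 and 58.9 CPM (counts scaled to the effective library size) in the libraries labelled Spns1 KO 1 to 4, against 39.2 to 62.8 in WT (-0.31 on the log2 scale, standard error 0.18, Benjamini-Hochberg adjusted p = 0.225, edgeR quasi-likelihood test). The floxed allele loses 1 exon, whereas the count covers all of them, and Spns1 KO below stands for the libraries with that label. By separate measurements, the paper reports that Spns1 RNA and protein were lost from proximal tubules of Megalin3'Cre-Ert mice with Spns1 flox/flox. If WT mice were Spns1 flox/+, as the methods state, the same Cre acted on 1 of their alleles too. Proximal tubule markers were abundant in all groups, but so were those of the thick ascending limb and distal tubule. The latter summed to 1802 to 4296 CPM in WT, 3170 to 4212 in Spns1 KO and 1839 to 5006 in FeO. The lists of every other kidney, blood and immune cell type examined were also above 0. Of 13 proximal tubule markers 9 were upregulated in Spns1 KO, where their summed level was 9069 to 10910 CPM against 4590 to 6333 in WT. In FeO 2 rose and 1 fell, and the sum was 2932 to 7381 CPM. Of 10 macrophage markers tested, 1 rose in Spns1 KO and 6 in FeO, with sums of 58.5 to 75.1 CPM in WT, 79.0 to 130.6 in Spns1 KO and 102 to 186 in FeO. Of 5 erythroid markers tested, 5 rose in Spns1 KO and 4 in FeO, with sums of 9.39 to 36.5 CPM in WT, 51.8 to 175 in Spns1 KO and 26.3 to 238 in FeO. Of 7 lymphocyte markers, 2 rose in Spns1 KO, and 1 rose and 1 fell in FeO. Their sums were 7.13 to 23.0 CPM in WT, 16.95 to 113 in Spns1 KO and 17.6 to 65.0 in FeO. Collecting duct and podocyte markers rose for 5 of 7 and 3 of 5 in FeO and for 1 of 7 and 2 of 5 in Spns1 KO. Another collecting duct marker, Foxi1, fell in Spns1 KO. The collecting duct sum was 305 to 450 CPM there against 356 to 627 in WT. In Spns1 KO the endothelial sum was 312 to 342 CPM against 207 to 254 in WT, with 3 of 6 markers up, and the fibroblast sum was 159 to 205 CPM against 93.5 to 138, with 3 of 7 up. In RNA from whole kidney, a change in the number of cells of a type and a change in RNA per cell cannot be told apart.

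Slc39a14 had the highest level in WT when counts were expressed per kilobase of the longest annotated transcript, at 40.3 ± 6.48 CPM per kilobase (SD, n = 5). Tfrc followed at 21.3 ± 2.97, Slc11a2 at 15.9 ± 2.36, Slc40a1 at 15.6 ± 4.45 and Cp at 9.27 ± 1.27 CPM per kilobase. Lower levels were seen for Slc39a8 (5.79 ± 1.22), Heph (3.62 ± 0.68), Hfe (3.38 ± 0.47), Steap3 (1.53 ± 0.31) and Cybrd1 (0.80 ± 0.03 CPM per kilobase). Importers thus stood both at the top (Slc39a14, Tfrc and Slc11a2) and, with Slc39a8, below the export genes Slc40a1 and Cp. Of the 9 neighbouring pairs in that order, 4 overlapped between libraries, namely Tfrc with Slc11a2, Slc11a2 with Slc40a1, Slc39a8 with Heph and Heph with Hfe. With the median transcript length in place of the longest, Slc40a1 passed Slc11a2 and Hfe passed Slc39a8. The order differed in the other groups: Slc11a2 stood first in Spns1 KO, at 27.3 ± 4.43 CPM per kilobase (SD, n = 4), and Slc40a1 first in FeO, at 25.4 ± 5.36 (SD, n = 4), while Cybrd1 was last in all 3. With the median length Slc40a1 stood first in both Spns1 KO and FeO. In Spns1 KO 7 and in FeO 8 of the 9 neighbouring pairs overlapped, and the first place in each group was not separate from the second.

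**Figure D1:**
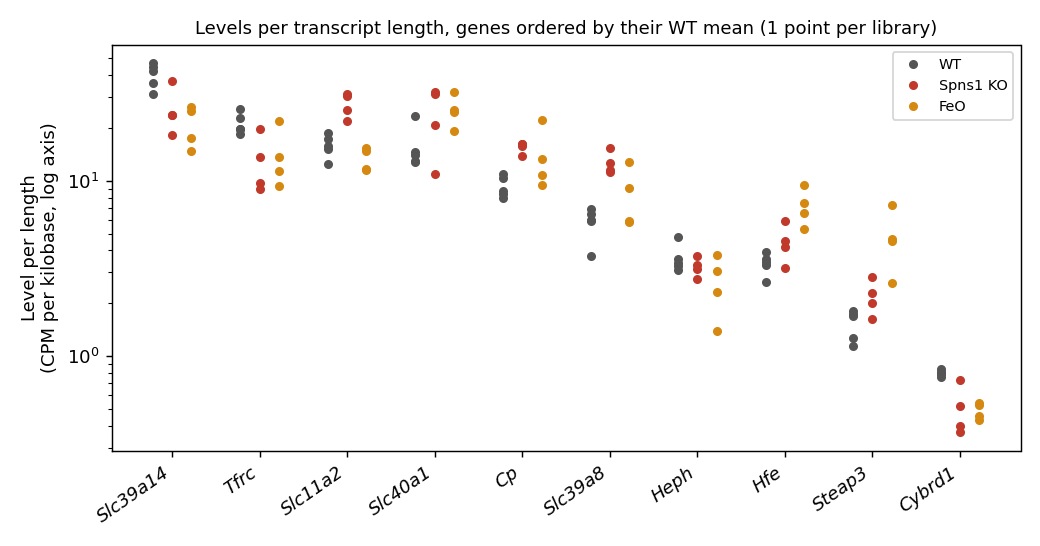
Levels of the 10 genes per length (CPM per kilobase of the longest annotated transcript, log axis), with 1 point per library for WT, Spns1 KO and FeO. Genes are ordered by their WT mean, from Slc39a14 at 40.3 to Cybrd1 at 0.80, and the Slc39a14 points of WT lie above those of every other gene in WT.

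Relative to WT, importers of divalent metal went in opposite directions in Spns1 KO, and Steap3 and Hfe of the transferrin route rose in FeO. The fall of Slc39a14 in Spns1 KO lost its call in 8 of 13 fits that left out 1 library. In Spns1 KO, 3 of the 10 genes were upregulated (Slc39a8, Slc11a2 and Cp) and 2 downregulated (Cybrd1 and Slc39a14), where a call needs an adjusted p under 0.05 and a log2 fold change beyond 0.5. Among all tested genes 14.0% were upregulated and 7.55% downregulated in that comparison. In FeO, 4 rose (Steap3, Hfe, Slc40a1 and Cp) and 2 fell (Slc39a14 and Cybrd1), against 22.4% and 19.7% of all tested genes. Libraries of the model and of WT did not overlap for 4 of the 10 genes in Spns1 KO and 4 in FeO, where 22.4% and 33.4% of all tested genes did not. The 10 genes had a median log2 fold change of 0.46 for Spns1 KO and 0.14 for FeO, beside -0.05 and -0.01 over all tested genes. Both models share the WT libraries, so their values stand side by side and not as independent evidence. Scaling by library totals alone moved the median of all genes by -0.13 in Spns1 KO and by -0.06 in FeO. In Spns1 KO it turned the split of calls from 65.0% to 45.5% upregulated. Shifts of that size were too small to turn any positive value of the 10 genes negative, so their unchanged signs carry no information. Calls did change. In Spns1 KO 2 of the 10 genes rose and 3 fell, with the call of Cp lost and that of Tfrc gained. In FeO 2 rose and 2 fell, with the calls of Slc40a1 and Cp lost.

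**Figure D2:**
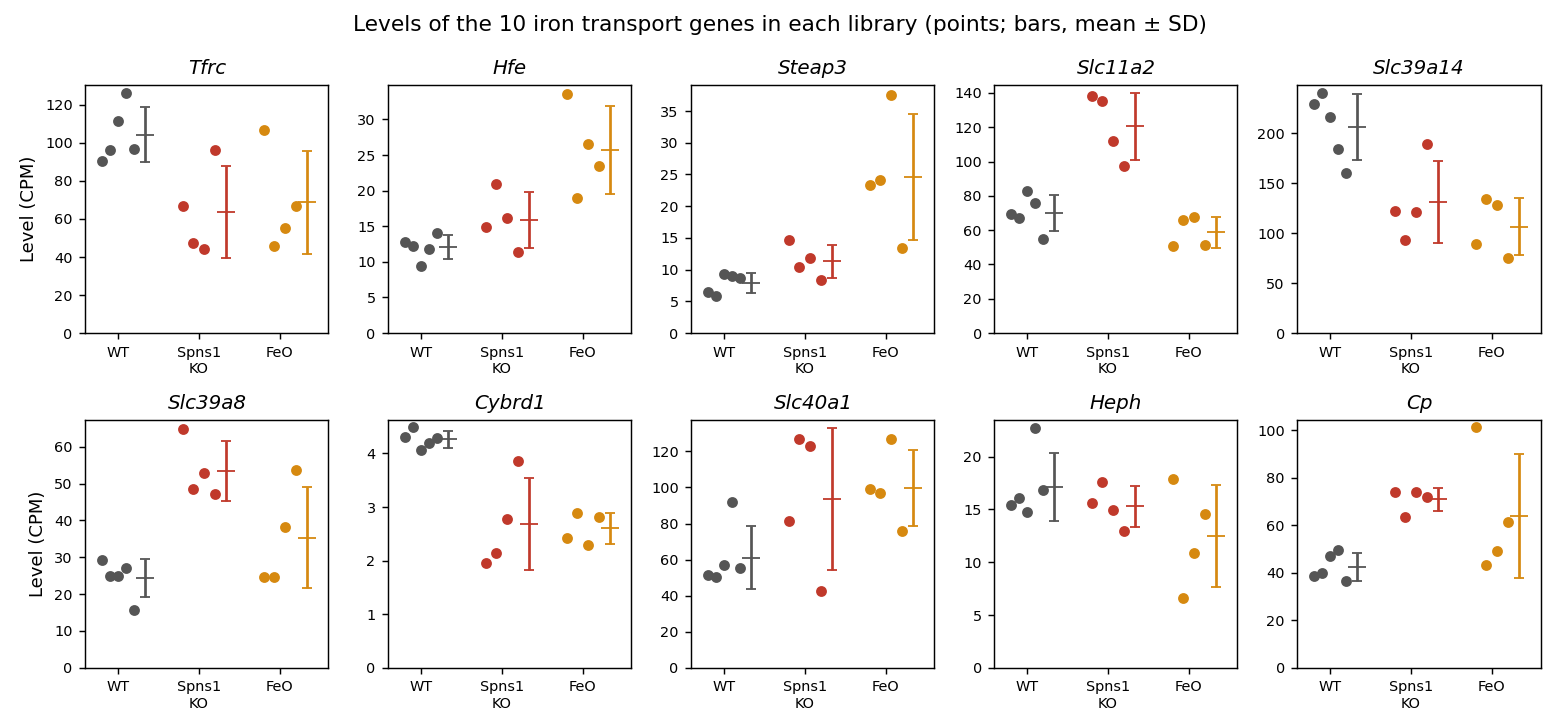
Levels of the 10 genes in CPM (vertical axes from 0, scaled separately for each gene) in 5 WT, 4 Spns1 KO and 4 FeO libraries; each point is 1 library and bars give the mean ± SD. Slc11a2 and Slc39a8 in Spns1 KO, and Steap3 and Hfe in FeO, lie above all WT points.

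**Figure D3:**
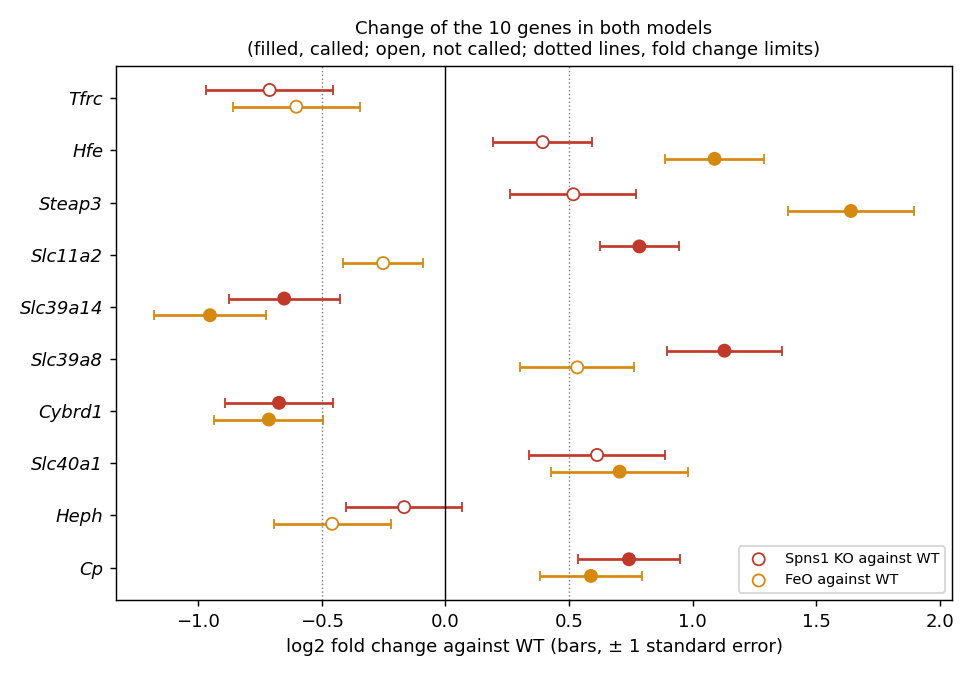
Log2 fold change of each gene against WT (horizontal axis, bars ± 1 standard error) in Spns1 KO and FeO; filled points passed both limits and dotted lines mark a log2 fold change of 0.5 in either direction. Steap3 reached 1.64 in FeO and Slc39a8 1.13 in Spns1 KO, while Slc11a2 lies on opposite sides of 0 in the 2 models.

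Of the transferrin route, Steap3 and Hfe rose in FeO and Tfrc was lower in both models without passing the limits. Steap3, the ferrireductase of the transferrin cycle (chromosome 1 from 120190757 to 120272705), measured 6.50, 5.88, 9.35, 9.00 and 8.72 CPM in the WT libraries 1 to 5, and the FeO libraries 1 to 4 held 23.3, 24.1, 37.5 and 13.5 CPM. All FeO libraries stood above WT, with FeO 3 highest and FeO 4 lowest. Its log2 fold change in FeO was 1.64 (standard error 0.26, adjusted p = 0.000494, edgeR quasi-likelihood test), above that of 98% of tested genes. In Spns1 KO the values were 14.6, 10.4, 11.8 and 8.37 CPM, and the last of these lay within WT (0.52, standard error 0.26, adjusted p = 0.152, edgeR). The FeO call of Steap3 was kept in all 12 alternative settings and in all 13 fits that left out 1 library.

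Hfe, an MHC class I-like partner of the transferrin receptor (chromosome 13 from 23702034 to 23710854), followed Steap3 in FeO. It measured 12.8, 12.2, 9.45, 11.8 and 14.1 CPM in WT and 33.6, 19.0, 26.6 and 23.4 CPM in FeO, without overlap. The log2 fold change in FeO was 1.09 (standard error 0.20, adjusted p = 0.000875, edgeR), which was also called under every alternative and without any single library. Spns1 KO libraries measured 14.9, 20.95, 16.2 and 11.4 CPM and overlapped WT (0.39, standard error 0.20, adjusted p = 0.163, edgeR). Without Spns1 KO 4 the Hfe value was 0.52 and passed the limits (adjusted p = 0.0465, edgeR), and without Spns1 KO 2 it was 0.23 (adjusted p = 0.474, edgeR). Of the 31-base stretches in Hfe transcripts, 5.94% also occur in other genes, foremost Gm20826.

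Tfrc, the transferrin receptor (chromosome 16 from 32608920 to 32632794), gives the message with the 4 stem-loops printed above. Its levels were 90.7, 96.2, 112, 126 and 96.8 CPM in WT, 67.0, 47.5, 44.1 and 96.5 CPM in Spns1 KO and 107, 45.8, 55.2 and 66.9 CPM in FeO. In each model 3 of the 4 libraries lay below the lowest WT library and 1, Spns1 KO 4 or FeO 1, lay inside the WT range. Against WT, Spns1 KO stood at -0.71 (standard error 0.26, adjusted p = 0.0574, edgeR) and FeO at -0.60 (standard error 0.26, adjusted p = 0.0672, edgeR) on the log2 scale. Without Spns1 KO 4 it was -0.98 in Spns1 KO and passed the limits (adjusted p = 0.00746, edgeR), as did FeO at -0.88 without FeO 1 (adjusted p = 0.0122, edgeR). Without FeO 2 the FeO value was -0.43 (adjusted p = 0.191, edgeR). Tfrc was also called in 5 of 12 alternatives for Spns1 KO and in 3 of 12 for FeO, DESeq2 (adjusted p = 0.0317) among the former, while taking out trends with length and GC content reduced the values to -0.46 and -0.22 (adjusted p = 0.194 and 0.474, edgeR). Over all refits the adjusted p of Tfrc spanned 0.00746 to 0.398 for Spns1 KO and 0.0122 to 0.474 for FeO, and the value stayed negative. Macrophage and erythroid markers, whose sums are given above, moved in both models, and their part in the values of Tfrc, Hfe and Steap3 was not tested.

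Among the divalent metal importers, Slc11a2 and Slc39a8 rose in Spns1 KO, and Slc39a14 fell in both models, less steadily in Spns1 KO. Slc11a2, which encodes DMT1 (chromosome 15 from 100387898 to 100425072), measured 69.3, 67.2, 82.6, 76.1 and 54.9 CPM in WT and 138, 135, 112 and 97.2 CPM in Spns1 KO. The groups did not overlap, and Spns1 KO 4 was nearest to WT. The log2 fold change was 0.79 (standard error 0.16, adjusted p = 0.00344, edgeR) and its call was lost in 1 of 12 alternatives, the glmTreat test against the fold change limit (adjusted p = 0.139, where it ran from 0.000119 to 0.139 over all refits). FeO libraries measured 50.7, 65.6, 67.5 and 51.5 CPM, of which FeO 1 and 4 lay below all WT libraries and FeO 2 and 3 inside the WT range (-0.25, standard error 0.16, adjusted p = 0.212, edgeR). The span of an opposite-strand gene, Gm5475, overlaps that of Slc11a2, introns included. Whether their exons overlap was not examined, and only reads from such shared stretches would need strand information to be told apart.

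Slc39a8, which encodes ZIP8 (chromosome 3 from 135825279 to 135888572), rose by more than any other of the 10 genes in Spns1 KO. WT libraries measured 29.2, 25.0, 24.8, 27.1 and 15.7 CPM, and Spns1 KO libraries 64.9, 48.5, 52.9 and 47.1 CPM, with no overlap. The log2 fold change was 1.13 (standard error 0.23, adjusted p = 0.00356, edgeR), above that of 93.9% of tested genes, and the call was kept in every refit. FeO was divided: FeO 1 and 2 stood at 24.7 and 24.7 CPM, inside WT, and FeO 3 and 4 at 38.2 and 53.7 CPM, above it (0.53, standard error 0.23, adjusted p = 0.0702, edgeR). Without FeO 1 or without FeO 2 that value became 0.69 and passed the limits (adjusted p = 0.0307 and 0.0232, edgeR), and without FeO 4 it was 0.29 (adjusted p = 0.265, edgeR). Noncoding genes, 4933401H06Rik, Gm43428 and Gm43429, overlap Slc39a8. Proximal tubule markers were also higher in Spns1 KO, and their part in the rise of Slc11a2 and Slc39a8 was not tested.

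Slc39a14, which encodes ZIP14 (chromosome 14 from 70303469 to 70351425), was the most abundant of the 10 in WT and fell in both models. WT libraries measured 229.8, 240.4, 217, 184 and 161 CPM, and FeO libraries 89.4, 134, 128 and 75.3 CPM, all below WT. In FeO the log2 fold change was -0.95 (standard error 0.23, adjusted p = 0.00399, edgeR), a call kept in every refit. In Spns1 KO the libraries measured 122, 93.1, 122 and 189 CPM, and Spns1 KO 4 alone lay within WT (-0.65, standard error 0.23, adjusted p = 0.0471, edgeR). That call was lost when Spns1 KO 1, 2 or 3, WT 1, 2, 3 or 4 or FeO 1 was left out (adjusted p between 0.0541 and 0.157), and in 5 of 12 alternatives, and the adjusted p ran from 0.00603 to 0.439 over all refits.

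Cybrd1, the membrane ferric reductase (chromosome 2 from 71117923 to 71142926), fell in both models from a low level. WT libraries kept close together at 4.30, 4.50, 4.06, 4.202 and 4.28 CPM. Spns1 KO libraries measured 1.95, 2.14, 2.77 and 3.87 CPM and FeO libraries 2.43, 2.89, 2.29 and 2.81 CPM, all below WT, with Spns1 KO 4 nearest. Cybrd1 fell by 0.67 on the log2 scale in Spns1 KO (standard error 0.22, adjusted p = 0.0361, edgeR) and by 0.71 in FeO (standard error 0.22, adjusted p = 0.0165, edgeR). These levels rest on 58 to 164 counts per library. The Spns1 KO call was lost without Spns1 KO 1, 2 or 3 or any 1 WT library (values of -0.69 to -0.54) and in 5 of 12 alternatives. Both calls ended when trends with length and GC content were taken out of each library, with log2 fold changes of -0.43 in Spns1 KO and -0.39 in FeO (adjusted p = 0.153 and 0.138, edgeR).

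On the export side, Cp rose in both models, Slc40a1 rose in FeO and Heph passed the limits in neither. Slc40a1, which encodes ferroportin (chromosome 1 from 45908068 to 45926523) and holds the 5′ stem-loop printed above, measured 51.2, 50.1, 57.0, 92.0 and 55.4 CPM in WT. FeO libraries measured 99.3, 96.8, 127 and 75.6 CPM, so FeO 4 lay below WT 4 and the groups overlapped. The log2 fold change in FeO was 0.71 (standard error 0.28, adjusted p = 0.048, edgeR). Its call was lost in 4 of 12 alternatives and in 8 of 13 fits that left out 1 library, namely Spns1 KO 1, WT 1, 2, 3 or 5 or FeO 1, 2 or 3, with values of 0.57 to 0.92 over all 13 and an adjusted p of 0.0124 to 0.244 over all refits. Spns1 KO was the most divided set for this gene, at 81.7, 127, 123 and 42.9 CPM, where Spns1 KO 4 lay below all WT libraries and the other 3 lay above at least 4 of the 5 (0.61, standard error 0.28, adjusted p = 0.118, edgeR). Without Spns1 KO 4 the value was 0.85 and without WT 4 it was 0.83, and both passed the limits (adjusted p = 0.009 and 0.0474, edgeR). Macrophages that recycle red cells are known for high ferroportin. Of 10 macrophage markers tested 6 rose in FeO, beside 22.4% of all tested genes, and their part in the values of Slc40a1 was not tested.

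Cp, which encodes ceruloplasmin (chromosome 3 from 19957054 to 20009145), measured 38.5, 39.9, 47.2, 49.7 and 36.3 CPM in WT and 74.1, 63.5, 74.0 and 71.8 CPM in Spns1 KO. All Spns1 KO libraries stood above WT, Spns1 KO 4 among them, by 0.74 on the log2 scale (standard error 0.21, adjusted p = 0.0182, edgeR). That call was lost without Spns1 KO 1 or Spns1 KO 3 (adjusted p = 0.0527 and 0.0524), in the test against the fold change limit and under scaling by library totals (0.61, adjusted p = 0.0605). FeO libraries measured 101, 43.2, 49.3 and 61.1 CPM, with FeO 1 high and FeO 2 and 3 inside the WT range (0.59, standard error 0.21, adjusted p = 0.0299, edgeR). Leaving out FeO 1 brought the FeO value to 0.29 and ended the call (adjusted p = 0.141, edgeR), and it was also lost without WT 1, WT 2 or WT 5 and in 3 of 12 alternatives. Hps3 overlaps Cp on the opposite strand.

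Heph, which encodes hephaestin (chromosome X from 96455359 to 96574485), measured 14.7 to 22.7 CPM in WT, 12.97 to 17.6 in Spns1 KO and 6.62 to 17.9 in FeO, and the groups overlapped. On the log2 scale Spns1 KO stood at -0.17 (standard error 0.23, adjusted p = 0.628, edgeR) and FeO at -0.46 (standard error 0.24, adjusted p = 0.124, edgeR). FeO 1 held the highest FeO level, and without it the FeO value was -0.67 and passed the limits (adjusted p = 0.0376, edgeR), whereas without FeO 2, the lowest, it was -0.23 (adjusted p = 0.35, edgeR). Of the 2 ferroxidase genes, therefore, Cp was called upward in both models and Heph had negative values in both without a call.

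The libraries of Spns1 KO were not alike across the 10 genes. For 7 of the 10 genes (Tfrc, Hfe, Steap3, Slc11a2, Slc39a14, Slc39a8 and Cybrd1) Spns1 KO 4 was the library of its group nearest to the WT mean on a log2 scale, and it also had the highest Spns1 level of that group. Spns1 KO 2 was nearest for Cp and Heph, and Spns1 KO 1 for Slc40a1. Without Spns1 KO 4, 5 of the 10 genes were upregulated in Spns1 KO (Slc39a8, Slc11a2, Cp, Slc40a1 and Hfe) and 3 downregulated (Slc39a14, Cybrd1 and Tfrc), in a fit that called 18.03% of all tested genes up and 16.1% down. Among FeO libraries no such pattern was seen, with FeO 1 nearest to WT for 3 genes, FeO 2 for 4, FeO 3 for 1 and FeO 4 for 2. Without FeO 1, 3 genes rose in FeO and 4 fell, Tfrc and Heph joining Slc39a14 and Cybrd1 while Cp and Slc40a1 lost their calls and Slc39a8 gained one, in a fit that called 19.7% of all tested genes up and 14.0% down.

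**Figure D4:**
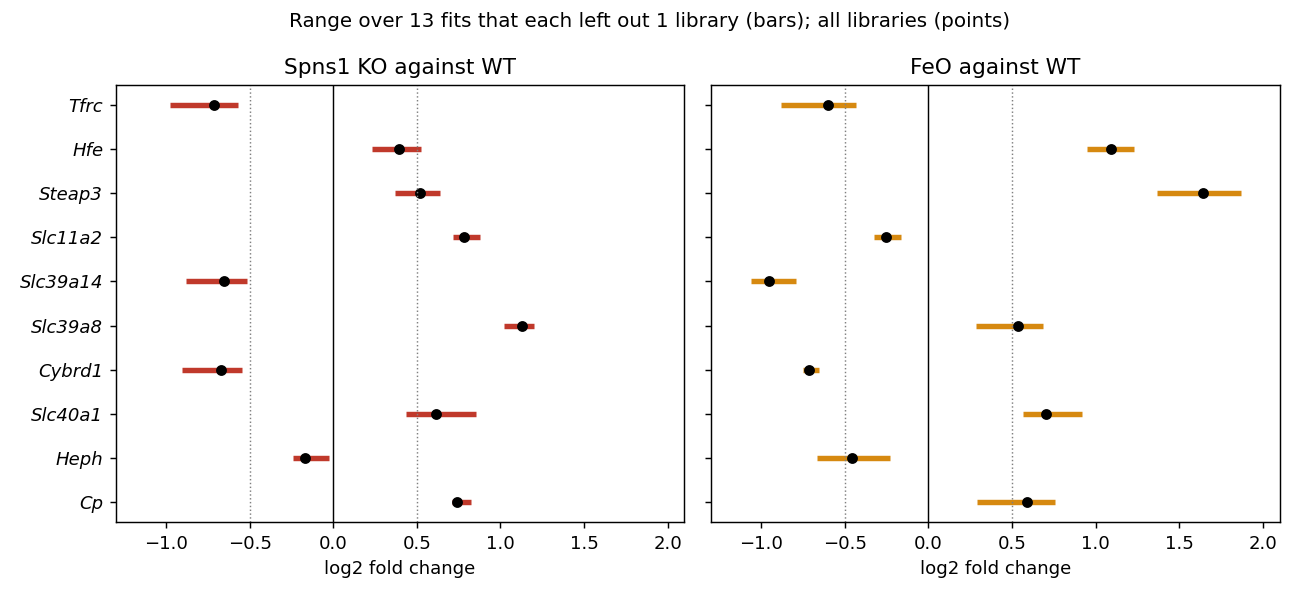
Log2 fold change against WT in Spns1 KO (left) and FeO (right) with all 13 libraries (points) and its range over 13 fits that each left out 1 library (bars); dotted lines mark a log2 fold change of 0.5 in either direction. Slc40a1 in Spns1 KO reached 0.85 without Spns1 KO 4, and Cp in FeO fell to 0.29 without FeO 1, while Steap3 in FeO and Slc39a8 in Spns1 KO stayed well beyond 0.5.

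Compared with each other, the 2 models differed for 3 of the 10 genes, of which 1 was higher and 2 were lower in Spns1 KO, against 6.76% and 8.10% of all tested genes. Slc11a2 was higher in all Spns1 KO libraries than in any FeO library (difference 1.04, standard error 0.17, adjusted p = 0.00324, edgeR), and it was the 1 gene of the 10 whose libraries did not overlap, where 17.4% of all tested genes did not. Steap3 was lower in Spns1 KO than in FeO by 1.12 on the log2 scale (standard error 0.27, adjusted p = 0.0144, edgeR), although Spns1 KO 1 stood above FeO 4. Hfe was at -0.70 (standard error 0.21, adjusted p = 0.0381, edgeR) with overlapping libraries, and its call was lost in 7 of 13 fits without 1 library (Spns1 KO 1, 3 or 4, WT 1 or 2, or FeO 1 or 3) and in 4 of 12 alternatives, the fit of these 2 groups alone among them. For the other 7 genes the difference lay between -0.11 (Tfrc) and 0.60 (Slc39a8) without passing the limits, and that of Slc39a8 was 0.86 and passed them without FeO 4 (adjusted p = 0.0173, edgeR). The median difference of the 10 genes was 0.10, beside 0.03 over all tested genes.

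Around these 10, 47 other genes of iron handling were listed and 43 were tested, of which 11 rose and 1 fell in Spns1 KO and 16 rose and 2 fell in FeO. Over all tested genes 14.0% rose and 7.55% fell in Spns1 KO, and 22.4% rose and 19.7% fell in FeO. The median of the 43 was 0.30 on the log2 scale for Spns1 KO and 0.34 for FeO, beside -0.05 and -0.01 over all tested genes. In the transferrin cycle and protein-bound uptake, 4 of 12 rose in Spns1 KO and 3 in FeO. B2m, the light chain that Hfe needs to reach the surface, rose in both, by 1.30 and 1.13 on the log2 scale. Slc22a17, a receptor for lipocalin 2, rose by 1.51 in Spns1 KO, as did the scavenging receptors Cubn (1.02) and Lrp2 (0.75), which are also on the proximal tubule marker list. Lcn2, the siderophore-binding lipocalin 2 and a marker of tubular injury, rose by 1.20 in FeO, and Snx3, which sorts the transferrin receptor for recycling, by 1.27.

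A further 9 genes were listed by family (Steap, cytochrome b561 and Frrs1), and not every one is an established ferric reductase. Of these, Steap1 rose in both models (0.73 in Spns1 KO and 0.94 in FeO) and Steap2 in Spns1 KO (0.85). In FeO, Steap4 (1.24), Cyb561 (1.14) and Cyb561d2 (1.11) rose and Cyb561d1 fell by 0.58. Cyb561a3, Frrs1 and Frrs1l passed the limits in neither model. Cyb561d1 thus shared the direction of Cybrd1, a member of the same cytochrome b561 family, in FeO, whereas the other called genes of these families went the opposite way. Among 9 tested organelle and broad metal transporters, 3 rose in FeO: Slc11a1, the phagosomal relative of Slc11a2 in macrophages (1.49), Slc39a1 (1.02) and Tmem165 (0.54). Of 5 tested export partners and heme transporters, 3 were called in both models. Slc46a1, a folate transporter that also carries heme, rose by 1.36 in Spns1 KO and 1.497 in FeO, Slc48a1, which moves heme out of lysosomes, by 0.66 and 0.69, while Flvcr1, which exports heme, fell by 1.18 and 0.73. Abcg2, an efflux pump for porphyrins and drugs, rose in Spns1 KO (0.91) and stood at 0.32 without a call in FeO, and Flvcr2 was at 0.01 and 0.04 without a call. Of 8 genes of iron regulation, delivery and storage, the ferritin subunits Fth1 (1.33 in Spns1 KO and 1.602 in FeO) and Ftl1 (1.53 and 1.37) rose in both, and the iron chaperones Pcbp1 (0.88) and Pcbp2 (0.78) in FeO. Fth1 and Ftl1, whose counts are uncertain because both have processed copies in the genome, were the only genes among the 47 with the stricter stem-loop pattern in an untranslated region.

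**Figure D5:**
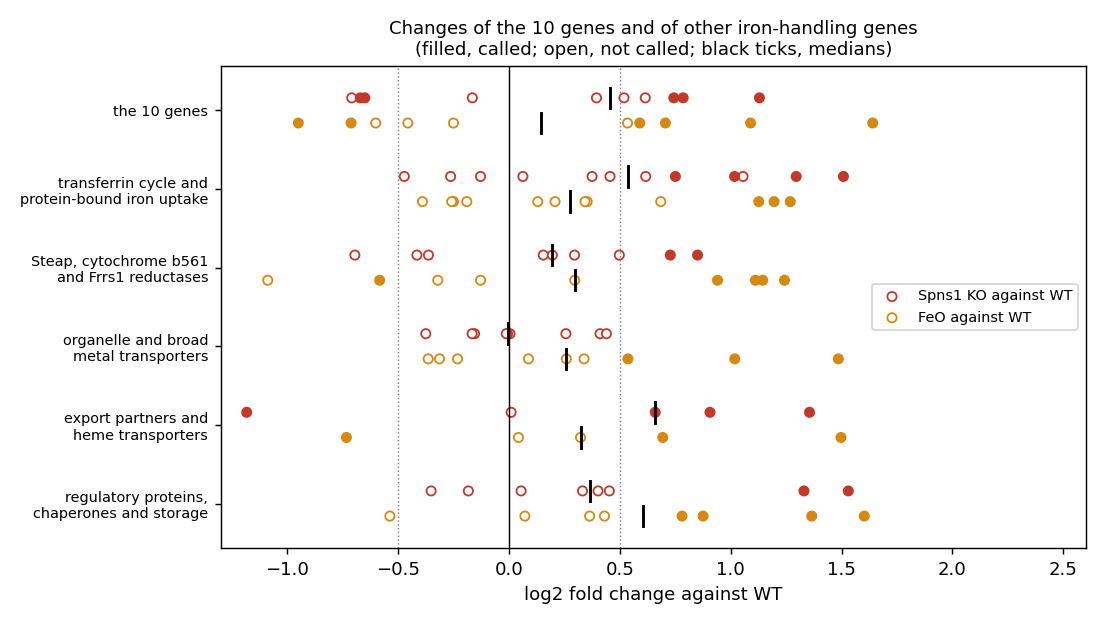
Log2 fold change against WT of the 10 genes and of 43 other tested iron-handling genes in 5 lists, for Spns1 KO and FeO; each point is 1 gene, filled when it passed both limits, and black ticks are medians. Fth1, Ftl1 and Slc46a1 lie between 1.33 and 1.602 in both models.

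The genes whose levels followed those of the 8 called genes most closely over the 13 libraries were sought among 12207 genes, as a description in which all points share the library, its depth and its group. Slc11a2 was most like Tpcn1, an endolysosomal channel (Pearson r = 0.961), and Slc39a8 most like Cyp2j5, a kidney cytochrome P450 (0.963). Slc39a14 was most like Arhgap26 (0.963), Cybrd1 most like Nkapd1 (0.971), Hfe most like Prmt1 (0.968) and Steap3 most like Timm17a, a subunit of the mitochondrial import machinery (0.956). Slc40a1 was most like Mettl15 (0.941), and Cp most like Aplp2 (0.937). No gene of the 10 or of the 47 was among the 3 most alike of any of the 8.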

How the data were processed

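RNA was tagged with 4-thiouracil, captured and sequenced by the authors, who deposited 1 table of estimated counts per gene symbol and library, whole numbers with no normalization. The submitters' processing notes name bcl2fastq 2.19, kallisto 0.44.0, DESeq2 and the build GRCm38, whereas the study's methods describe alignment with STAR and counting with HTSeq. Use of strand is not given in the sources used here. The series text calls the iron dietary, the protocol injected. All 13 columns were mapped to samples, and 0 columns of per-sample values were left unused.

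Genes kept by filterByExpr were scaled with TMM factors and tested in a single quasi-likelihood fit of all libraries (R 4.3.3, edgeR 4.0.16), with Benjamini-Hochberg adjustment over 16468 genes. A call needed an adjusted p under 0.05 and a log2 fold change beyond 0.5. Alternatives used DESeq2 1.42.0, limma-voom (limma 3.58.1), other scalings, other filters and call rules, removal of a trend on length and GC content, a replicate block and omission of each library. The fit was also run on simulated counts, as a check of the code and not of the spread between these libraries. Libraries of 1 group differed by more than sampling noise, so none was counted as a duplicate. WT 1 and WT 2 were by far the most alike, with a chi-square per degree of freedom of 7.86. Every other pair within a group lay between 36.5 and 301.3. Whether WT 1 and WT 2 came from the same animal was not tested. Cybrd1 had the fewest counts of the 10 genes.

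All 10 genes were named whatever their values. Of the other iron-handling lists the called genes were named, at most 6 per list, and for each called gene of the 10 the gene with the closest profile (mean of at least 100 counts, log2 CPM with a prior count of 2). The 10 genes and the lists were chosen with earlier results of these data known. Pairing by replicate number was checked as given in the closing section. Positions, lengths and sequences came from GENCODE M21.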

Additional observations from a re-analysis of the deposited data

Results flagged for a closer look

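Values of 2 genes stood far from the rest of their group among 30 sets of 1 gene in 1 group, a screen in which chance alone flags about 1 in 20. Both belong to WT 4. Slc40a1, the ferroportin gene, was at 92.0 CPM there and at most 57.0 CPM in the other WT libraries. Heph, the hephaestin gene, was at 22.7 CPM in WT 4 against at most 16.9 CPM in the others. Spns1 was also lowest among WT in this library, at 39.2 CPM.

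For 3 genes the effect in Spns1 KO differed from that in FeO by a test of the difference itself. The difference was 1.04 on the log2 scale for Slc11a2 (adjusted p = 0.00324, edgeR quasi-likelihood test with Benjamini-Hochberg adjustment), with every Spns1 KO library above every FeO library. It was -1.12 for Steap3 (adjusted p = 0.0144, edgeR) and -0.70 for Hfe (adjusted p = 0.0381, edgeR), both with overlapping libraries.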

How the results depend on the processing

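Of 750 log2 fold changes of single genes recomputed under other settings, 651 kept their direction and their side of the limits, 65 lost a call, 21 gained one and 13 changed direction, all 13 without a call. The genes called in Spns1 KO were 3 up and 2 down. They became 1 up and 0 down with the test against the fold change limit, 0 down without a filter on low counts or after removal of length and GC trends, and 2 to 5 up and 0 to 3 down when 1 library was left out. In FeO, 4 up and 2 down became 2 up with library totals, 2 up and 1 down in the test against the limit, 1 down after removal of length and GC trends, and 2 to 4 up and 2 to 4 down without 1 library. Between the models, 1 up and 2 down became 1 down with only the 2 groups in the fit and 0 down in the test against the limit. Without 1 library, 1 to 2 were up and 1 to 2 down, beside 3.27% to 8.73% up and 3.81% to 9.77% down of all tested genes. Shares over all tested genes are not given here for the test against the limit, the unfiltered fit, the fit of 2 groups or the replicate block. The counts under those settings cannot be read as changes of the 10 genes alone. The value of Heph in Spns1 KO turned to 0.057 after removal of length and GC trends, and to 0.10 with the block added. Differences between the models that changed sign were all small: without 1 library, Tfrc ran from -0.38 to 0.20 (positive without Spns1 KO 2, Spns1 KO 3 or FeO 1), Slc40a1 from -0.27 to 0.15 (positive without Spns1 KO 4 or FeO 3) and Cybrd1 from -0.19 to 0.17 (negative without Spns1 KO 4 or FeO 3), and Cybrd1 was -0.041 with library totals, -0.030 with limma-voom, -0.035 after removal of length and GC trends and -0.046 with the block added. The cause of these changes was not tested.

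Whether replicate numbers pair the libraries was left undecided. Of 12 same-numbered pairs 4 had deviations correlated above 0.1 (range -0.30 to 0.26), and 3 of 13 libraries correlated best with their own number. No level for chance was set beside these values, so the check cannot exclude pairing. The study's methods name littermates and mouse pairs treated at the same time, and the labels do not say which libraries these gave. A replicate block gave 3 up and 1 down in Spns1 KO, 2 up and 3 down in FeO, and 1 up and 1 down between the models. Under it Slc39a14 and Cybrd1 lost their Spns1 KO calls, Slc40a1 and Cp their FeO calls and Hfe its call between the models, and Tfrc gained one in Spns1 KO (-0.81) and in FeO (-0.69). Combined with removal of both trends, it gave 3 up and 0 down, 3 up and 1 down, and 1 up and 1 down. Levels per length depend on the transcript chosen: in WT, the median length in place of the longest moved Tfrc from 21.3 to 129 CPM per kilobase. Cybrd1 rests on the fewest counts.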
